A study of Homo sapiens with 18 samples.

Results

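The 10 genes described here encode the NF-kB transcription factor subunits and the proteins of the IkB family that hold those subunits back or modify them. They were taken from the deposited count table as the rows whose Ensembl identifiers map to RELA, REL, RELB, NFKB1, NFKB2, NFKBIA, NFKBIB, NFKBIE, NFKBIZ and BCL3, which is 10 of 63677 genes. All 10 passed the filter on low counts and were among the 16678 genes tested. RNA came from THP-1, a human monocytic leukaemia cell line, so that all libraries share a single genetic background. The cells received 25 nM of an siRNA against TRAFD1 (knockdown, KD), 25 nM of a scrambled siRNA (SCR) or no siRNA (WT). At 72 h after transfection, cells of each condition were given lipopolysaccharide (LPS) at 10 ng/ml or medium alone for 4 h. There were 6 groups of 3 libraries, and the replicate numbers are 1, 2 and 3 for medium and 4, 5 and 6 for LPS. The sources disagree on WT, which one describes as untreated cells and another as cells given transfection mix that lacked siRNA, so in a contrast with WT the effects of reagent and of siRNA cannot be told apart. The labels do not say which separate cultures the libraries of a group came from, so the p-values measure the spread between these libraries only.

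NF-kB is a dimer drawn from a family of related subunits, in which RELA, REL and RELB carry the domains that activate transcription while NFKB1 and NFKB2 encode precursors that are cut down to shorter DNA-binding partners. In a resting monocyte the classical inhibitors NFKBIA, NFKBIB and NFKBIE keep the dimers in the cytoplasm, and when a receptor such as TLR4 senses LPS the IkB kinase marks these inhibitors for degradation and the dimers enter the nucleus. NFKBIA, NFKB1, NFKB2 and other genes of the family are themselves NF-kB targets, so the pathway rebuilds its own inhibitors. NFKBIZ and BCL3 are atypical family members that act in the nucleus, where they bind dimers on DNA and modify which target genes are transcribed.

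Total counts ran from 8206023 to 22344279 per library, and a count of 0 allowed a level of up to 0.133 to 0.378 CPM, the count scaled to a library total common to all libraries. The libraries carried no molecular identifiers in the table, so this limit covers counting error only. All 11 markers of the monocyte lineage were detected in each group, with a summed level of 511 to 676 CPM per library. FCGR1A alone held 249 to 341 CPM of this, and MPO had 2 counts in each of KD replicates 3 and 4. The summed level was 2.52 to 6.27 CPM for 4 B cell markers and 10.8 to 18.4 CPM for 4 natural killer cell markers. For 4 epithelial markers it was 0.252 to 3.15 CPM, and it was at most 1.02 CPM for 4 T cell and 0.252 CPM for 5 erythroid markers. TRAFD1, the siRNA target, stood at 11.6, 5.36 and 9.01 CPM in KD and at 26.8, 20.1 and 24.2 CPM in SCR without LPS (log2 fold change -1.45, SE 0.23, edgeR adjusted p = 0.0277). For TRAFD1 this call was lost when SCR replicate 1, SCR replicate 3 or KD replicate 2 was left out (edgeR adjusted p 0.119, 0.112 and 0.0640) and in a fit to the 6 libraries of the contrast alone (edgeR adjusted p = 0.0847). It was kept with RLE size factors (edgeR adjusted p = 0.0193) and with no filter on low counts (edgeR adjusted p = 1.85e-11). It was also kept with a replicate block (edgeR adjusted p = 0.00146) and by DESeq2 on all libraries (adjusted p = 1.80e-06). With LPS TRAFD1 stood at 13.8 to 15.8 CPM in KD and 18.7 to 27.4 CPM in SCR, and this difference of -0.65 on the log2 scale was not called (SE 0.22, edgeR adjusted p = 0.262). It was called with no filter on low counts (edgeR adjusted p = 0.0275) and by DESeq2 on the 6 libraries of the contrast without a filter (adjusted p = 0.0158). The other alternatives did not call it. LPS raised the cytokine genes TNF by 3.16, 1.73 and 1.40, IL1B by 4.01, 4.24 and 4.90 and CXCL8 by 4.34, 3.84 and 3.34 on the log2 scale in WT, SCR and KD.

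Promoters of the members were searched for the sequence that NF-kB dimers bind, because several of these genes are known to be NF-kB targets themselves. RefSeq promoter windows, each running from 250 bases before to 50 bases after a gene's start on GRCh38.p14, were at hand for 8 of the 10 members (14 windows, since some genes have alternative starts). The kB consensus, a run of 10 bases that opens with guanines and closes with cytosines, was looked for on both strands, and overlapping matches were merged. It was found in 9 of the 14 windows and in 7 of the 8 genes, RELA being the gene without a match in these windows. Of all 35116 promoter windows given by RefSeq, 5.91% held a match, and of all 27305 genes 7.09% did. Among the 28 genes of a list of NF-kB targets that had a window, 12 had a match. A match describes letters in a window and not a bound site, as no binding was measured. The runs below are printed on the strand of the gene, with the matched bases in capitals, and include every match found, so that subunit and inhibitor genes can be compared.

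REL, chr2:60881518-60881546, plus strand: gtcagccgcGGGAAATTCCCctcccgcca
NFKB1, chr4:102501300-102501329, plus strand: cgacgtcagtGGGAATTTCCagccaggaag
NFKB2, chr10:102394462-102394490, plus strand: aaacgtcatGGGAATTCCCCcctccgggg
NFKB2, chr10:102394490-102394519, plus strand: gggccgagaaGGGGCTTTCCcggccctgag
NFKB2, chr10:102395519-102395548, plus strand: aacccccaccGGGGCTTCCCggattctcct
NFKB2, chr10:102395674-102395703, plus strand: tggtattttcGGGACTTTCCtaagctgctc
NFKBIB, chr19:38899932-38899960, plus strand: ggcgtggtgGGGAATTTCCCgcagggcgg
NFKBIZ, chr3:101827757-101827786, plus strand: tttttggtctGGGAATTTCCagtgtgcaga
NFKBIZ, chr3:101849265-101849294, plus strand: gcgcgctgtcGGGGTTTCCCggtgaagggc
BCL3, chr19:44748700-44748729, plus strand: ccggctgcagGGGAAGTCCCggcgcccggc
NFKBIA, chr14:35404750-35404999, minus strand: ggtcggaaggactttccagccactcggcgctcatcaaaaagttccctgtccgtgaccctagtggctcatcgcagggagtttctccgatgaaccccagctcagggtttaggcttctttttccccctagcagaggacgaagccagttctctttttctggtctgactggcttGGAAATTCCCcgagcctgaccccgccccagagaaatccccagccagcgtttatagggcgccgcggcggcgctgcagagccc

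The bases GGGAATTTCC were found in the NFKB1 and NFKBIB promoters and in one window of NFKBIZ, whose other window held GGGGTTTCCC. The NFKB2 matches differed from each other. For NFKBIA, whose product is the main inhibitor and whose RNA was the most abundant of the 10, the whole stretch of 250 bases before the start is shown, with the match beginning 81 bases before the start (position -81). In NFKB2, which had the most matches, one of its 3 windows held matches at -107 and -78 and another held matches at -176 and -21. The BCL3 match lay just inside the transcript, at position 3.

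The first question was how the family answered LPS in each condition. LPS raised all 10 members in WT cells, against 7.01% of all genes tested that were called higher in that comparison. In SCR cells 9 of 10 were higher, against 8.64% of all genes, and in KD cells 9 of 10, against 6.41%. RELA was the member that was not called in SCR and KD. The median log2 fold change of the 10 members was 2.38 in WT, 1.41 in SCR and 1.35 in KD, beside medians of -0.03, -0.03 and -0.00 over all genes tested. Mitochondrial genes, a sign of RNA quality, moved with LPS too, from 3.19 to 3.37% of counts per library to 3.82 to 4.45% in WT and from 3.28 to 3.47% to 3.72 to 5.204% in SCR. In KD their share was 3.87 to 4.86% without and 4.28 to 5.14% with LPS, so that unstimulated KD libraries stood above those of WT and SCR, and the part of this share in the results was not tested. The spread among members was wide, from 0.37 for RELA to 3.24 for NFKBIZ in WT. Levels below are CPM with the library totals scaled by TMM, tests are edgeR's quasi-likelihood test with Benjamini-Hochberg adjustment over all 16678 genes and a threshold of 0.05, and SE is the standard error of a log2 fold change. Bulk RNA does not tell more responding cells from more RNA in each cell.

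**Figure D1:**
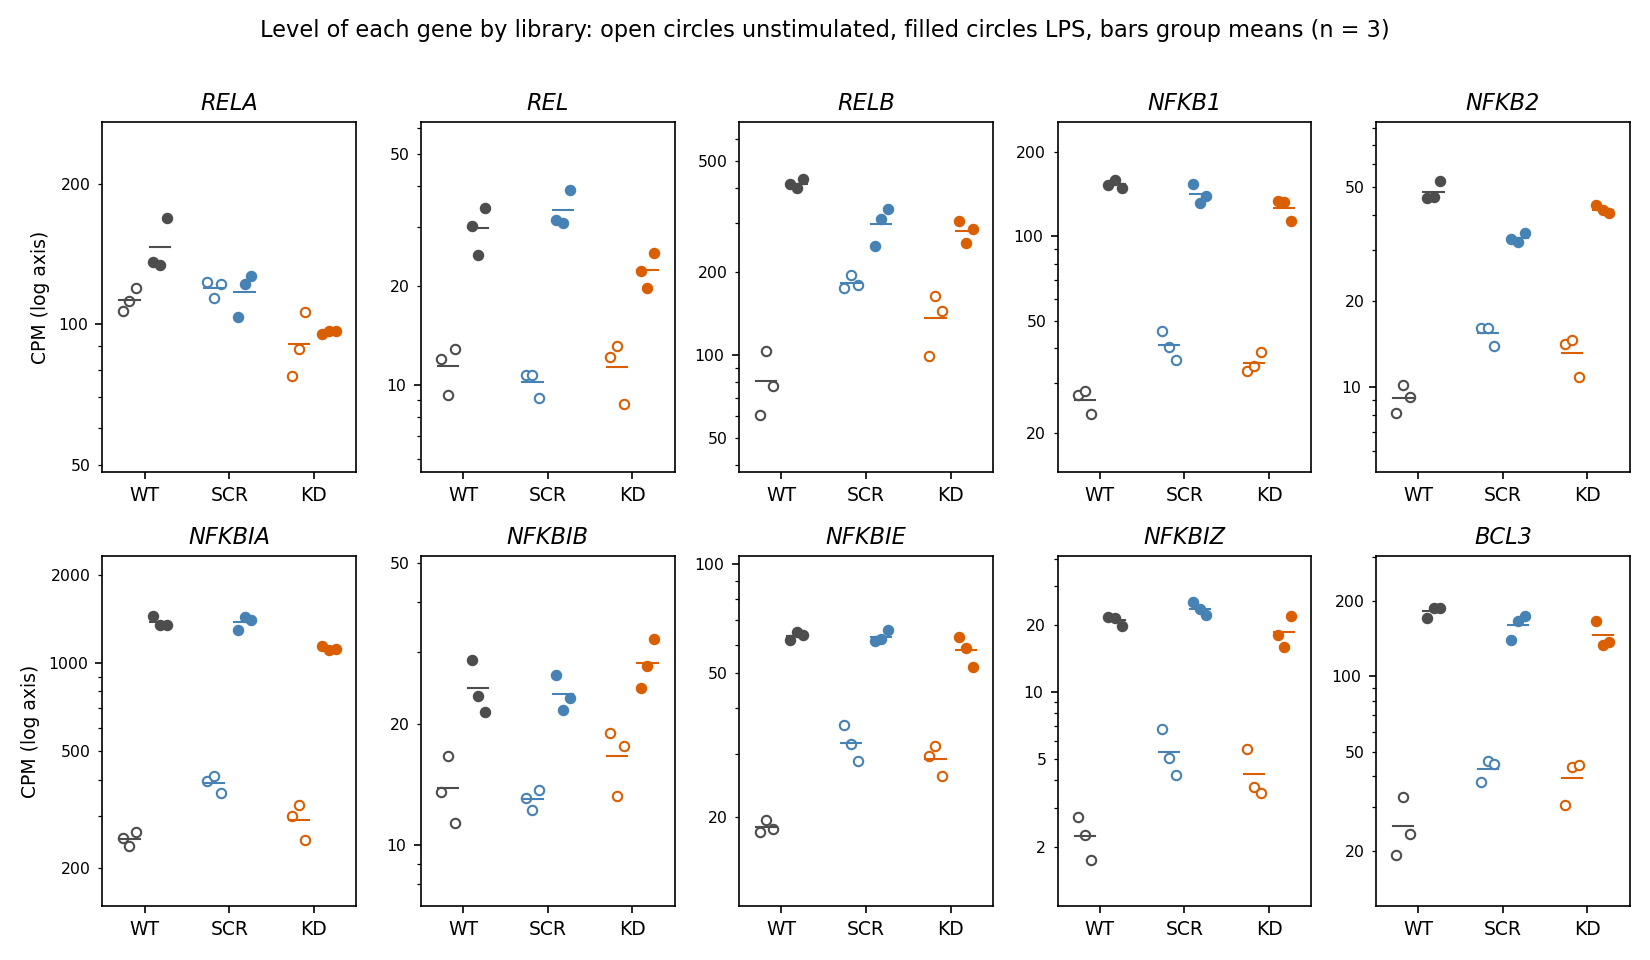
Level of each of the 10 genes in each of the 18 libraries, in CPM on a log axis that differs between panels, by condition (WT, SCR, KD). Open circles are unstimulated libraries, filled circles are LPS libraries and bars are group means of 3 libraries. Every LPS library stood above every unstimulated library of its own condition for all members except RELA in SCR and KD, and the unstimulated WT libraries of 7 genes lay below all unstimulated SCR libraries. Of all genes tested, LPS and unstimulated libraries did not overlap in either direction for 32.5% (WT), 37.3% (SCR) and 25.4% (KD), and unstimulated SCR and WT libraries for 22.6%.

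RELA, the activating subunit of the most common NF-kB dimer, was the member that moved least. In WT it stood at 107, 112 and 119.6 CPM without LPS and at 136, 134 and 169 CPM with LPS. In SCR the levels were 123, 114 and 122 CPM without and 104, 122 and 127 CPM with LPS. KD libraries held 77.6, 88.4 and 106 CPM without and 95.4, 96.8 and 96.9 CPM with LPS. The groups did not overlap in WT and overlapped in SCR and KD. RELA rose by 0.37 on the log2 scale in WT (SE 0.11, edgeR adjusted p = 0.0334). This call was kept in only 2 of the 6 fits that each left out a WT library, and was lost without WT replicates 1, 2, 3 and 6, with the log2 fold change between 0.26 and 0.44 and the edgeR adjusted p at most 0.221. In SCR the log2 fold change was -0.03 (95% interval -0.27 to 0.21, edgeR adjusted p = 0.892) and in KD it was 0.09 (95% interval -0.15 to 0.33, edgeR adjusted p = 0.680).

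REL, an activating subunit of blood cells, was the least abundant of the 3 activating subunits. Its WT level was 12.02, 9.34 and 12.8 CPM without LPS and 30.3, 24.8 and 34.2 CPM with LPS. SCR libraries held 10.7, 10.8 and 9.15 CPM without and 31.5, 30.9 and 38.9 CPM with LPS. In KD it was 12.1, 13.1 and 8.77 CPM without and 22.2, 19.6 and 25.0 CPM with LPS. All LPS libraries lay above all unstimulated ones, and with LPS the 3 KD libraries lay below the 3 SCR libraries. On the log2 scale the response was 1.37 in WT (SE 0.17, edgeR adjusted p = 6.37e-06), 1.72 in SCR (SE 0.17, edgeR adjusted p = 4.12e-07) and 0.97 in KD (SE 0.17, edgeR adjusted p = 0.00072). REL was the single subunit gene whose 3′ end overlaps an exon of another gene on the same strand, in an annotation other than the one counted with. That gene had 0 counts in all libraries, which does not show how reads shared by both genes were assigned.

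RELB, the activating subunit that pairs with the processed NFKB2 product, was the most abundant subunit RNA after LPS. It stood at 60.7, 103 and 77.0 CPM in WT without LPS and at 413, 400.0 and 432 CPM with LPS. SCR libraries held 174, 194 and 179 CPM without LPS, all above the WT libraries, and 248, 308 and 336 CPM with LPS, all below them. In KD the levels were 99.4, 164 and 144 CPM without LPS and 304, 253 and 285 CPM with LPS. The rise was 5.19-fold in WT (2.37 log2 units, SE 0.17, edgeR adjusted p = 1.58e-09). It was 1.63-fold in SCR (0.71 log2 units, SE 0.17, edgeR adjusted p = 0.00484) and 2.07-fold in KD (1.05 log2 units, SE 0.17, edgeR adjusted p = 0.00019).

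NFKB1 encodes the precursor of the partner that most often pairs with RELA. WT libraries held 27.2, 28.2 and 23.2 CPM without LPS and 152, 159 and 149 CPM with LPS. In SCR it was 46.2, 40.2 and 36.3 CPM without and 153, 132 and 139.8 CPM with LPS. KD libraries held 33.1, 34.5 and 38.7 CPM without and 133, 132 and 114 CPM with LPS. Unstimulated libraries of SCR and KD thus lay above those of WT, while with LPS the KD libraries lay below the WT libraries. The rise was 5.88-fold in WT (2.55 log2 units, SE 0.12, edgeR adjusted p = 8.86e-13), 3.45-fold in SCR (1.79 log2 units, SE 0.11, edgeR adjusted p = 3.17e-10) and 3.57-fold in KD (1.83 log2 units, SE 0.11, edgeR adjusted p = 2.67e-10).

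NFKB2 encodes the precursor of the RELB partner in the slower, non-canonical arm of the pathway. Its WT level was 8.13, 10.2 and 9.24 CPM without LPS and 45.8, 46.1 and 52.4 CPM with LPS. In SCR the libraries held 16.1, 16.1 and 13.9 CPM without and 32.7, 32.1 and 34.6 CPM with LPS. In KD they held 14.1, 14.6 and 10.9 CPM without and 43.1, 41.4 and 40.3 CPM with LPS. With LPS the libraries of the 3 conditions did not overlap, WT being highest, KD next and SCR lowest. The reported fit called none of these differences. The edgeR adjusted p was 0.0905 for SCR against WT, 0.295 for KD against WT and 0.310 for KD against SCR. How many of all genes were separated in this way was not counted. The rise was 5.26-fold in WT (2.39 log2 units, SE 0.13, edgeR adjusted p = 1.90e-11), 2.15-fold in SCR (1.10 log2 units, SE 0.13, edgeR adjusted p = 3.13e-06) and 3.15-fold in KD (1.65 log2 units, SE 0.13, edgeR adjusted p = 1.01e-08).

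Among the classical inhibitors, NFKBIA, which encodes the inhibitor that is degraded and rebuilt within one round of signalling, was by far the most abundant. In WT it stood at 252, 238 and 265 CPM without LPS and at 1446, 1349 and 1349 CPM with LPS. SCR libraries held 396, 413 and 359 CPM without LPS and 1299, 1436 and 1406 CPM with LPS. In KD the levels were 299, 328 and 249 CPM without and 1144, 1108 and 1117 CPM with LPS. SCR libraries lay above WT libraries without LPS and overlapped them with LPS, and KD libraries with LPS lay below both. The rise was 5.49-fold in WT (2.46 log2 units, SE 0.09, edgeR adjusted p = 4.51e-14), 3.54-fold in SCR (1.83 log2 units, SE 0.09, edgeR adjusted p = 8.48e-12) and 3.85-fold in KD (1.94 log2 units, SE 0.09, edgeR adjusted p = 3.48e-12).

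NFKBIE, a slower inhibitor of REL and RELA dimers, stood at 18.2, 19.7 and 18.6 CPM in WT without LPS and at 61.7, 65.0 and 63.9 CPM with LPS. In SCR it was 35.9, 31.8 and 28.5 CPM without and 61.5, 62.1 and 65.7 CPM with LPS. KD libraries held 29.6, 31.5 and 26.0 CPM without and 63.0, 58.6 and 52.0 CPM with LPS. The unstimulated WT libraries were lower than those of SCR and KD, and the LPS libraries of the 3 conditions overlapped. In log2 units the rise was 1.76 in WT (SE 0.11, edgeR adjusted p = 2.06e-10), 0.97 in SCR (SE 0.11, edgeR adjusted p = 2.11e-06) and 0.99 in KD (SE 0.11, edgeR adjusted p = 1.90e-06).

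NFKBIB encodes an inhibitor that is classically described as less responsive to NF-kB itself. Its level ran from 11.3 to 16.6 CPM in WT, 12.2 to 13.7 CPM in SCR and 13.2 to 18.9 CPM in KD without LPS. With LPS the ranges were 21.3 to 28.8 CPM in WT, 21.6 to 26.4 CPM in SCR and 24.4 to 32.4 CPM in KD. On the log2 scale the rise was 0.84 in WT (SE 0.17, edgeR adjusted p = 0.00153), 0.86 in SCR (SE 0.17, edgeR adjusted p = 0.00136) and 0.76 in KD (SE 0.17, edgeR adjusted p = 0.00443), and no comparison between conditions called it.

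Of the atypical members, NFKBIZ had the largest fold change of the family in all 3 conditions, and BCL3 came next in WT and SCR. NFKBIZ, a nuclear cofactor for late LPS genes such as IL6, stood at 2.71, 2.27 and 1.73 CPM in WT without LPS and at 21.8, 21.4 and 19.9 CPM with LPS. In SCR it was 6.79, 5.02 and 4.23 CPM without and 25.6, 23.6 and 22.2 CPM with LPS. KD libraries held 5.50, 3.71 and 3.49 CPM without and 17.98, 15.9 and 21.99 CPM with LPS. It was the least abundant member without LPS and rested there on 25 to 153 counts per library. The rise was 9.46-fold in WT (3.24 log2 units, SE 0.22, edgeR adjusted p = 6.12e-10), 4.37-fold in SCR (2.13 log2 units, SE 0.20, edgeR adjusted p = 1.75e-07) and 4.36-fold in KD (2.12 log2 units, SE 0.21, edgeR adjusted p = 3.28e-07).

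BCL3, a nuclear partner of the processed NFKB1 and NFKB2 products, was the more abundant atypical member. WT libraries held 19.4, 33.0 and 23.5 CPM without LPS and 170.2, 187 and 188 CPM with LPS. In SCR the levels were 37.9, 46.0 and 44.4 CPM without and 139.8, 167 and 174 CPM with LPS. KD libraries held 30.7, 43.2 and 44.3 CPM without and 167, 133 and 137 CPM with LPS. Without LPS the SCR libraries lay above the WT libraries, whereas the lowest KD library lay below the highest WT library. The rise was 7.24-fold in WT (2.86 log2 units, SE 0.17, edgeR adjusted p = 5.89e-11), 3.76-fold in SCR (1.91 log2 units, SE 0.16, edgeR adjusted p = 3.25e-08) and 3.70-fold in KD (1.89 log2 units, SE 0.16, edgeR adjusted p = 5.14e-08).

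**Figure D2:**
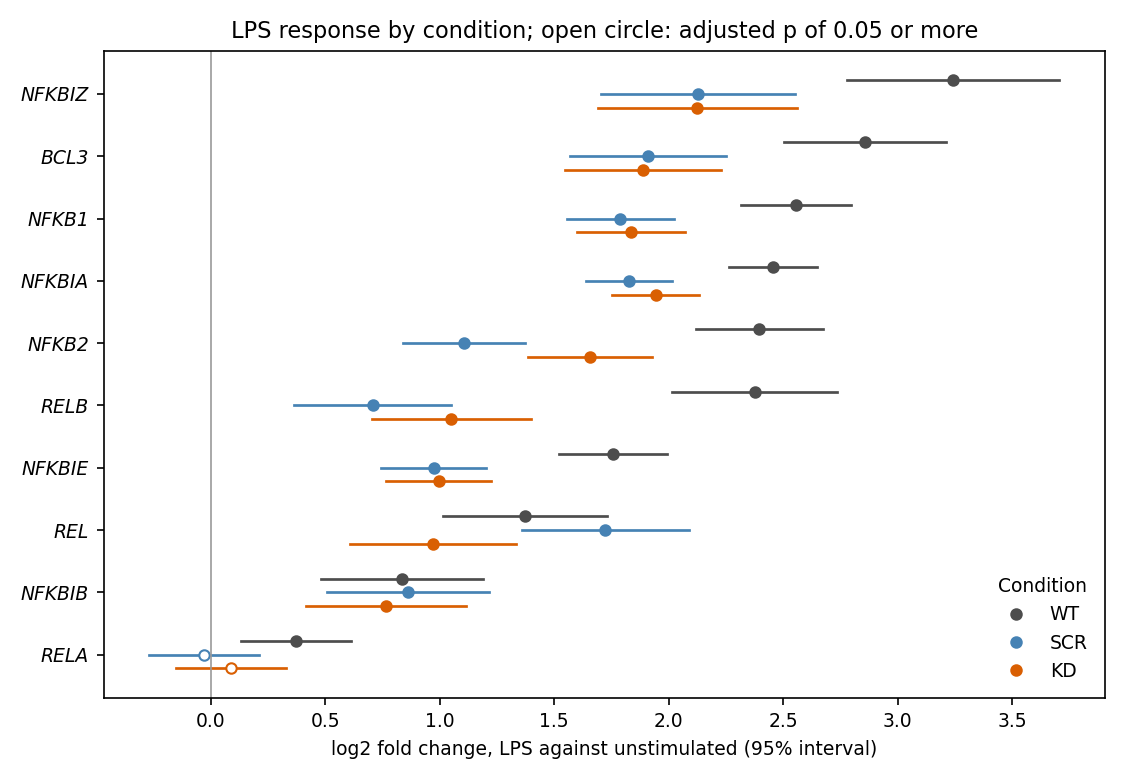
Log2 fold change of LPS against unstimulated libraries for each gene in WT, SCR and KD, with 95% intervals from the edgeR fit; filled circles mark an adjusted p under 0.05. Values run from 0.37 for RELA to 3.24 for NFKBIZ in WT, and the 2 open circles are RELA in SCR and KD.

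The second question was how the scrambled siRNA treatment compared with WT before and after LPS. Without LPS 7 of 10 members were higher in SCR than in WT and none was lower, where 3.23% of all genes were called in either direction. NFKBIZ was higher by 1.29 on the log2 scale (2.45-fold, SE 0.23, edgeR adjusted p = 0.00314) and RELB by 1.19 (2.28-fold, SE 0.17, edgeR adjusted p = 0.000376). NFKBIE followed with 0.77 (SE 0.11, edgeR adjusted p = 0.00048), BCL3 with 0.76 (SE 0.17, edgeR adjusted p = 0.0133), NFKB2 with 0.75 (SE 0.13, edgeR adjusted p = 0.00311), NFKB1 with 0.65 (SE 0.11, edgeR adjusted p = 0.00289) and NFKBIA with 0.63 (SE 0.09, edgeR adjusted p = 0.000371). In each of these 7 genes all 3 SCR libraries lay above all 3 WT libraries, and 22.6% of all genes did not overlap between these groups. The BCL3 call was lost without WT replicate 1 (edgeR adjusted p = 0.0747), without WT replicate 3 (edgeR adjusted p = 0.0668) and without SCR replicate 3 (edgeR adjusted p = 0.0516), and the other 6 calls were kept in every fit that left out a library. RELA (0.09, 95% interval -0.15 to 0.33), REL (-0.17, 95% interval -0.53 to 0.20) and NFKBIB (-0.08, 95% interval -0.43 to 0.28) did not pass the threshold.

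With LPS 0 of 10 members were called between SCR and WT, where 0.114% of all genes were called. An unadjusted p under 0.05 was seen for 3 members and for 13.7% of all genes. The log2 fold changes ran from -0.54 for NFKB2 to 0.18 for REL, and NFKB2, RELB and RELA were the members whose SCR libraries all lay below their WT libraries, while those of NFKBIZ all lay above. Of all genes 22.8% did not overlap between these groups. Same-numbered libraries deviated together in this contrast, although no label says that equal numbers mark a pair. A fit with the replicate block called NFKB2 (log2 fold change -0.54, edgeR adjusted p = 0.0427, against 0.0905 without the block). For NFKBIA the difference with LPS was -0.00 (95% interval -0.18 to 0.18) and for NFKBIE it was -0.01 (95% interval -0.23 to 0.22).

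KD cells were also compared with WT, and the 2 comparisons share the WT libraries with those of SCR. Without LPS 6 members were higher in KD, where 11.7% of all genes were called in either direction. These were NFKBIZ by 0.94 (SE 0.24, edgeR adjusted p = 0.0123), RELB by 0.76 (SE 0.17, edgeR adjusted p = 0.00534), BCL3 by 0.65 (SE 0.17, edgeR adjusted p = 0.0140), NFKBIE by 0.63 (SE 0.11, edgeR adjusted p = 0.00115), NFKB2 by 0.53 (SE 0.14, edgeR adjusted p = 0.0134) and NFKB1 by 0.44 (SE 0.11, edgeR adjusted p = 0.0151), as log2 fold changes. In BCL3 and RELB the KD and WT libraries overlapped, and in the other 4 they did not, as in 24.3% of all genes. RELA was not called, but its KD libraries all lay below its WT libraries (log2 fold change -0.32, 95% interval -0.56 to -0.08, edgeR adjusted p = 0.0815). A fit to the 6 libraries of this contrast alone called 0 members, and 3 were called without WT replicate 3, which lost NFKB1, NFKBIZ and BCL3 (edgeR adjusted p 0.0711 to 0.103). The NFKB1 call was also lost without KD replicate 3, NFKB2 without WT replicate 1 or KD replicate 2, NFKBIZ without KD replicate 1, and BCL3 without WT replicate 1 or KD replicate 3, with edgeR adjusted p from 0.0524 to 0.0842 for these, while RELB and NFKBIE were called in all 6.

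With LPS 3 members were called, all of them lower in KD than in WT, where 10.8% of all genes were called in either direction. RELA was lower by 0.60 (log2 fold change -0.60, SE 0.12, edgeR adjusted p = 0.00369), RELB by 0.57 (log2 fold change -0.57, SE 0.16, edgeR adjusted p = 0.0313) and NFKBIA by 0.30 (log2 fold change -0.30, SE 0.09, edgeR adjusted p = 0.0334). KD libraries lay below all WT libraries in these 3 genes and also in NFKB1, NFKB2 and BCL3, which were not called, and 35.0% of all genes did not overlap between these groups. RELA stayed past the threshold without any of the 6 libraries (edgeR adjusted p 0.00739 to 0.0422), whereas RELB and NFKBIA lost it whichever library was left out: WT replicate 4, 5 or 6, or KD replicate 4, 5 or 6 (edgeR adjusted p 0.0552 to 0.138 for RELB and 0.0561 to 0.111 for NFKBIA).

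**Figure D3:**
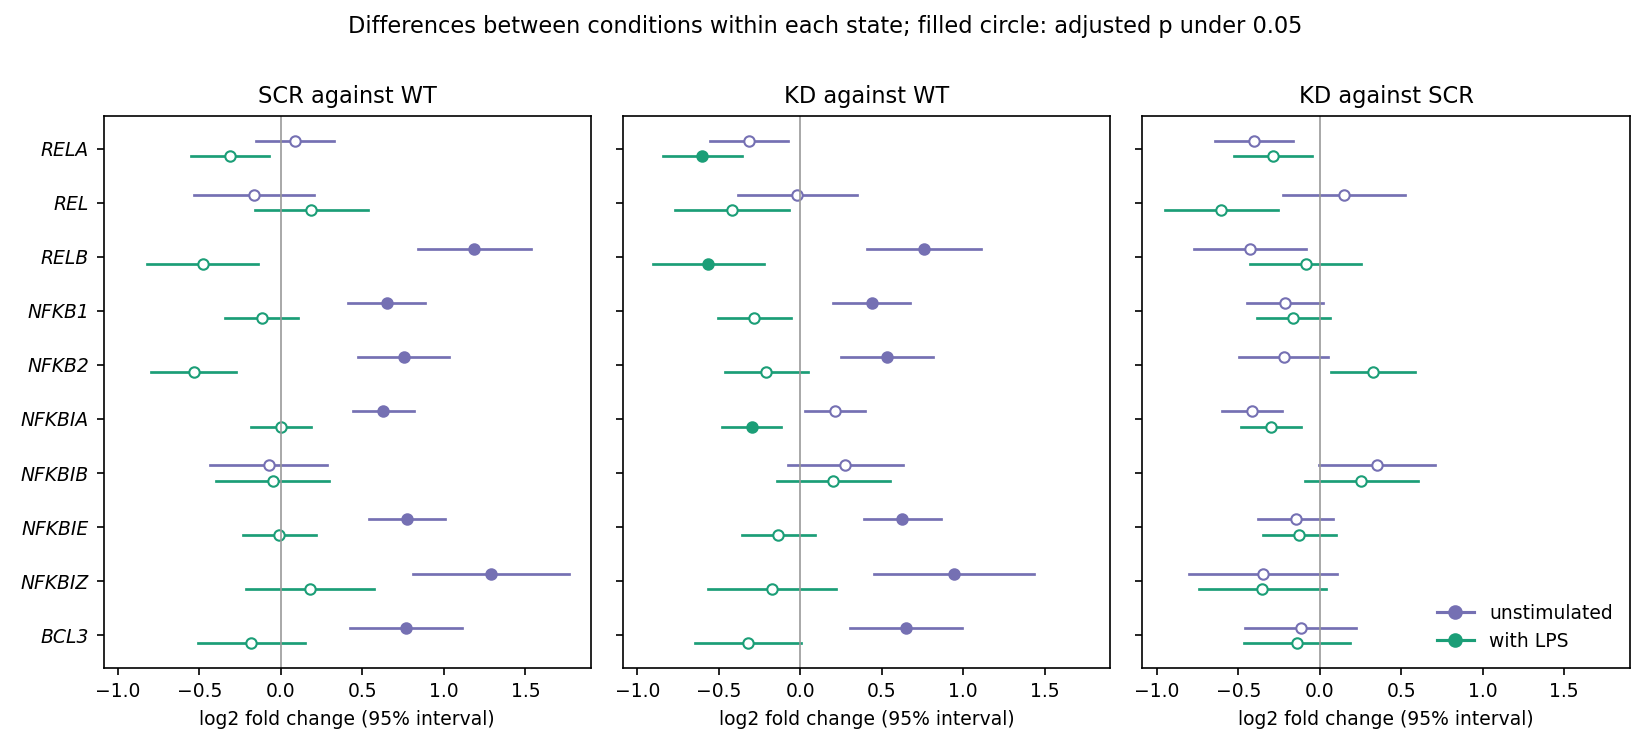
Log2 fold changes between conditions for each gene, with 95% intervals from the edgeR fit, without LPS and with LPS; filled circles mark an adjusted p under 0.05. Against WT, 7 genes in SCR and 6 in KD have filled circles to the right of 0 without LPS, and 3 in KD lie to the left with LPS, while no gene is filled between KD and SCR.

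The size of the LPS response itself was then compared between conditions. The response of 5 members was smaller in SCR than in WT, where 0.234% of all genes were called in either direction. These were RELB (difference of log2 fold changes -1.67, SE 0.23, edgeR adjusted p = 0.00142), NFKB2 (-1.29, SE 0.18, edgeR adjusted p = 0.00142), NFKBIE (-0.78, SE 0.16, edgeR adjusted p = 0.0329), NFKB1 (-0.77, SE 0.16, edgeR adjusted p = 0.0368) and NFKBIA (-0.63, SE 0.12, edgeR adjusted p = 0.0329). NFKBIZ (-1.11, SE 0.30, edgeR adjusted p = 0.211) and BCL3 (-0.95, SE 0.23, edgeR adjusted p = 0.116) had differences of comparable size that did not pass. RELB and NFKB2 were called whichever of the 12 libraries was left out. NFKBIA was called in 3 of those 12 fits, NFKB1 in 2 and NFKBIE in 2. For RELB and NFKB2 the SCR libraries were above WT without LPS and below WT with LPS, whereas for NFKBIE and NFKBIA the SCR libraries were above WT without LPS and overlapped WT with LPS.

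Between KD and WT the response was smaller in 3 members, where 0.360% of all genes were called. RELB had a difference of -1.32 (SE 0.23, edgeR adjusted p = 0.0113), NFKBIE one of -0.76 (SE 0.16, edgeR adjusted p = 0.0361) and NFKB1 one of -0.72 (SE 0.16, edgeR adjusted p = 0.0466). The RELB call was lost without KD replicate 5 (edgeR adjusted p = 0.0551) and held in the other 11 fits that left out a library, whereas NFKBIE was called in 4 of 12 and NFKB1 in 2 of 12. Across those 12 fits the number of members called ran from 0 without KD replicate 5 to 6 without KD replicate 1. No member was called for a difference in response between KD and SCR, where 0.00% of all genes were called, with 2 members and 7.64% of all genes at an unadjusted p under 0.05. The 2 members were REL (-0.75, SE 0.24, edgeR adjusted p = 0.569) and NFKB2 (0.55, SE 0.18, edgeR adjusted p = 0.569). DESeq2 also called 0 members there.

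Between the TRAFD1 siRNA and the scrambled siRNA, 0 of 10 members were called in either state by the reported edgeR fit. Some alternative edgeR settings did call members in each state, as given in the closing section on processing. Without LPS 0.0660% of all genes were called, and 3 members and 12.6% of all genes had an unadjusted p under 0.05. Those were NFKBIA (-0.42, 95% interval -0.60 to -0.23, edgeR adjusted p = 0.0655), RELA (-0.40, 95% interval -0.64 to -0.16, edgeR adjusted p = 0.134) and RELB (-0.43, 95% interval -0.77 to -0.08, edgeR adjusted p = 0.280). In each of the 3 genes all KD libraries lay below all SCR libraries, and 15.1% of all genes did not overlap between these groups. DESeq2 on all libraries called NFKBIA there (adjusted p = 0.0124). With LPS 0.00% of all genes were called, and 11.8% had an unadjusted p under 0.05, as did 4 members, namely REL (-0.60, 95% interval -0.95 to -0.26), NFKBIA (-0.30, 95% interval -0.48 to -0.11), RELA (-0.29, 95% interval -0.53 to -0.05) and NFKB2 (0.33, 95% interval 0.07 to 0.59). DESeq2 on all libraries called 1 member, REL, with LPS. With LPS the KD libraries lay below all SCR libraries in REL, NFKBIA, RELA and NFKBIZ and above them in NFKB2, where 21.5% of all genes did not overlap. NFKBIA and RELA lay lower in KD without overlap in both states, and the reported edgeR fit called neither gene in either state. How many of all genes did so in both states was not counted.

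The make-up of the subunit RNA pool also differed between groups. Counts here come from the 3′ end of each transcript and do not scale with gene length, although the share of transcripts caught at each gene's annotated end was not measured. RELA held 49.7%, 42.7% and 49.4% of the counts of the 5 subunits in the unstimulated WT libraries and 17.5%, 17.5% and 20.2% after LPS. In SCR its share was 33.3%, 30.4% and 33.9% without LPS and 18.2%, 19.5% and 18.7% with LPS. RELB went the opposite way in WT, from 33.1% ± 5.57 to 52.4% ± 0.758 (SD, n = 3 each). Its share was 49.4% ± 2.40 in SCR and 46.9% ± 5.01 in KD without LPS, and 47.5% ± 3.45 and 49.4% ± 2.43 with LPS (SD, n = 3 each). RELA was thus the leading subunit RNA in unstimulated WT libraries, and RELB in every other group.

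**Figure D4:**
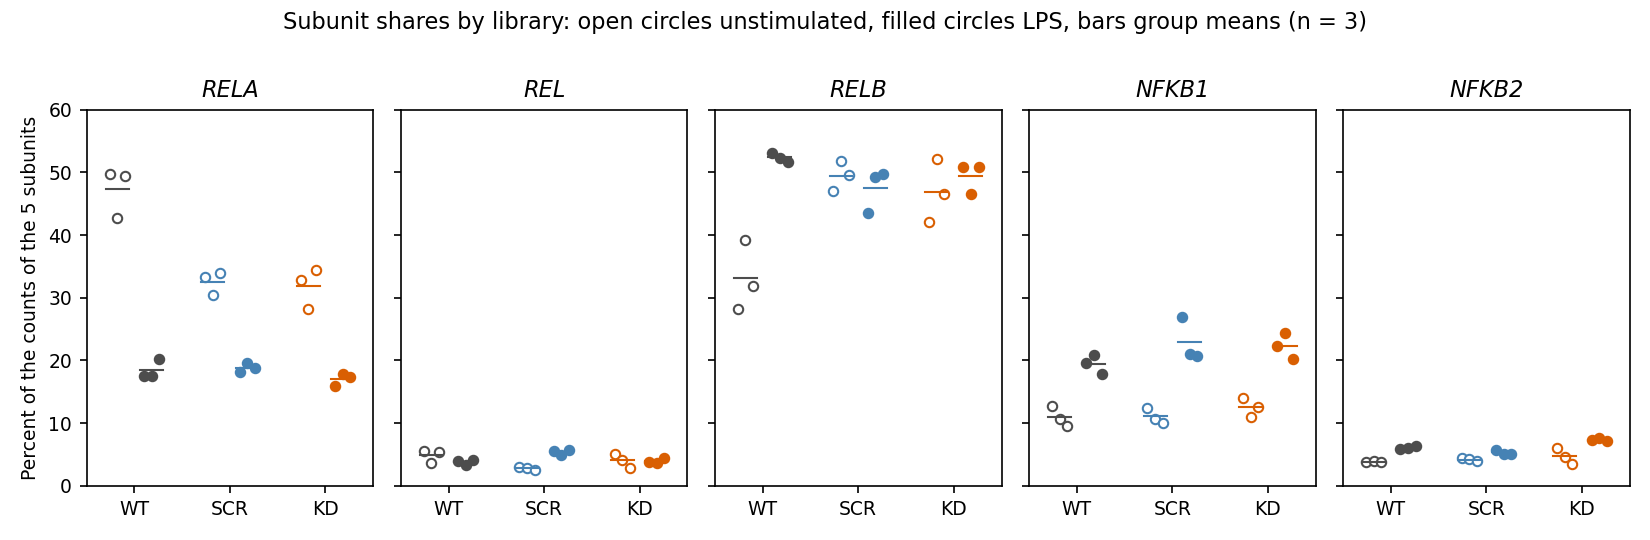
Percent of the counts of the 5 subunits that belong to each subunit, per library, by condition. Open circles are unstimulated libraries, filled circles are LPS libraries and bars are group means of 3 libraries. RELA falls from 42.7% or more in unstimulated WT libraries to 20.2% or less with LPS, and unstimulated SCR and KD libraries lie between.

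NFKBIA made up most of the counts of the 3 classical inhibitors, from 86.4% ± 1.48 in unstimulated KD to 94.1% ± 0.414 in SCR with LPS (SD, n = 3 each). There were 2.23 ± 0.125 NFKBIA counts for each RELA count in WT without LPS and 9.57 ± 1.41 with LPS. The ratio was 3.25 ± 0.340 in SCR and 3.30 ± 0.835 in KD without LPS, and 11.8 ± 0.729 and 11.7 ± 0.292 with LPS (SD, n = 3 each). The ratio of the 3 inhibitors together to the 5 subunits together stood at 1.19 ± 0.143, 1.18 ± 0.0550 and 1.20 ± 0.262 in unstimulated WT, SCR and KD, so that the unstimulated groups differed by less than their spread. With LPS this ratio was 1.86 ± 0.134 in WT, 2.36 ± 0.130 in SCR and 2.13 ± 0.0700 in KD (SD, n = 3 each), and the WT libraries lay below all SCR and KD libraries. The exact permutation p of 3 libraries against 3 cannot go below 0.1, so these shares and ratios are given without a test.

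Genes whose profile over the 18 libraries was most like that of a member were found by the mean absolute difference of centred log2 CPM. For NFKBIA the nearest non-members were CD40 at 0.11, SDC4 at 0.12 and GCH1 at 0.17. CD40 is a costimulatory receptor, SDC4 a cell surface proteoglycan and GCH1 an enzyme of biopterin synthesis. Within the family NFKB1 was nearest to NFKBIA (0.13, rank 3 of 16677 genes), followed by BCL3 (rank 7) and NFKB2 (rank 13), while RELA was the farthest (0.97, rank 4855). For NFKB2 the nearest non-members were a gene without a symbol in the table used (ENSG00000155130, 0.21), CD44 and TNIP1 (0.22). For NFKBIZ they were TNFAIP3 (0.21), ENSG00000256515, also without a symbol, and CCL3L1 (both 0.24).

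Other genes of the pathway were read from lists. Of 14 genes that signal upstream of the inhibitors (the IkB kinase complex, its activating kinases and ligase adaptors) 12 were tested. IKBKG and IKBKE had 0 counts in all libraries under the identifiers matched and were not tested. Whether their RNA was absent or was not counted there was not examined. With LPS 1 was higher and 1 lower in WT, 2 and 1 in SCR, and 4 and 1 in KD, where 14.3%, 17.2% and 11.5% of all genes were called in either direction. In KD the genes that were higher were MAP3K8, CHUK, RIPK1 and TAB2, and the lower gene in each condition was IKBKB. MAP3K8, a kinase held by the NFKB1 precursor, rose by 1.49, 1.48 and 1.34 in WT, SCR and KD on the log2 scale (SE 0.19 in each, edgeR adjusted p at most 5.92e-05). IKBKB, a catalytic subunit of the IkB kinase, fell by 0.40, 0.39 and 0.31 (SE 0.10 in each, edgeR adjusted p = 0.00718, 0.00765 and 0.0432). TBK1, a related kinase of the interferon pathway, passed in SCR (0.58, SE 0.20, edgeR adjusted p = 0.0490), and its values of 0.07 in WT and 0.34 in KD did not pass. The medians of the upstream list were 0.02, -0.03 and 0.18, beside -0.03, -0.03 and -0.00 over all genes.

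Of 7 other modulators of the IkB family and of NF-kB in the nucleus, all tested, 1 was higher with LPS in WT, 0 in SCR and 1 in KD. Of all genes 7.01%, 8.64% and 6.41% were called higher. The modulator called was NKRF, a repressor of NF-kB target promoters, with 0.50 in WT (SE 0.16, edgeR adjusted p = 0.0360), 0.17 in SCR (SE 0.16, edgeR adjusted p = 0.516) and 0.53 in KD (SE 0.15, edgeR adjusted p = 0.0293). NFKBID, another nuclear IkB protein, had log2 fold changes of 0.78, 0.42 and 0.75, and NKIRAS1, a small GTPase that binds inhibitors, had 0.74, 1.04 and -0.22, none past the threshold. In SCR, where none of the 7 was called by edgeR, the medians were 0.05 for the list and -0.03 over all genes.

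The ubiquitin-editing brakes of the pathway, 9 genes, were all tested, with 4 higher and 1 lower in WT, 5 higher and 0 lower in SCR, and 4 higher and 1 lower in KD. Of all genes 14.3%, 17.2% and 11.5% were called in either direction. The medians of the list were 0.35, 0.32 and 0.33, beside -0.03, -0.03 and -0.00 over all genes. TNFAIP3, TNIP1, TNIP3 and CYLD were higher in each condition, OTULIN in SCR, and TAX1BP1 was lower in WT and KD. TNFAIP3, a ubiquitin editor that limits signalling, rose by 3.43, 2.55 and 2.38 log2 units in WT, SCR and KD (SE 0.17, 0.16 and 0.16, edgeR adjusted p at most 1.67e-09), and its partners TNIP1 by 2.25, 1.52 and 1.47 (SE 0.09 in each, edgeR adjusted p at most 3.85e-10) and TNIP3 by 3.31, 1.43 and 2.42 (SE 0.28, 0.26 and 0.29, edgeR adjusted p at most 0.000597). Without LPS TNFAIP3 (1.10, SE 0.17, edgeR adjusted p = 0.000827) and TNIP3 (1.38, SE 0.29, edgeR adjusted p = 0.0113) were higher in SCR than in WT. The response of TNIP1 (-0.73, SE 0.13, edgeR adjusted p = 0.0113) and TNIP3 (-1.88, SE 0.38, edgeR adjusted p = 0.0368) was smaller in SCR than in WT, and that of TNIP1 (-0.78, SE 0.13, edgeR adjusted p = 0.00725) and TNFAIP3 (-1.05, SE 0.23, edgeR adjusted p = 0.0457) was smaller in KD than in WT.

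Of 34 genes listed as NF-kB targets outside the family 31 were matched and 28 tested. In WT 26 of these rose with LPS, in SCR 23 and in KD 25, and 0 fell, where 7.01%, 8.64% and 6.41% of all genes were called higher. Their medians were 2.97, 2.05 and 2.46 beside -0.03, -0.03 and -0.00 over all genes. CXCL10, a chemokine, rose by 6.96, 4.89 and 5.36 (SE 0.28, 0.25 and 0.26), IL1B, a cytokine, by 4.01, 4.24 and 4.90 (SE 0.27, 0.26 and 0.29), and CD40 by 2.28, 1.94 and 2.01 (SE 0.13, 0.12 and 0.12) on the log2 scale. Without LPS 9 of the 28 were higher in SCR than in WT and 0 lower (median 0.66, beside 0.01 over all genes), among them CXCL10 (1.89, SE 0.28, edgeR adjusted p = 0.000615) and TNF (1.46, SE 0.15, edgeR adjusted p = 9.44e-06). Of all genes 3.23% were called there in either direction. With LPS 0 of 28 differed between SCR and WT by edgeR (median -0.02), where 0.114% of all genes were called. The response was smaller in SCR than in WT for 4 targets, CXCL10 (-2.07, SE 0.35, edgeR adjusted p = 0.0074), TNF (-1.42, SE 0.21, edgeR adjusted p = 0.0021), CD83 (-1.55, SE 0.17) and SDC4 (-0.97, SE 0.16), where 0.234% of all genes were called. In KD against WT 11 were higher and 1 lower without LPS, where 11.7% of all genes were called in either direction. With LPS 1 was higher (PLAU, 1.49) and 3 lower (CFLAR, -0.51, IRF1, -0.56, and SDC4, -0.43), where 10.8% of all genes were called. Between KD and SCR 0 of the 28 were called in either state by edgeR, with medians of -0.25 without LPS and -0.19 with LPS.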

How the data were processed

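The libraries were made with QuantSeq, a kit that reads from the 3′ end of polyadenylated RNA, and the values deposited by the authors are raw read counts per Ensembl gene. The authors removed low-quality, adaptor and poly-A reads, aligned to GRCh37 with HISAT and counted with featureCounts against an annotation limited to the end of each gene, so that isoforms that share an end are not told apart. All 18 columns of counts were used and 0 were left out. edgeR 4.0.16 (R 4.3.3) was used for the filter on low counts (filterByExpr, 16678 genes kept), for TMM scaling and for a quasi-likelihood F test from a single model of the 6 group means. The Benjamini-Hochberg adjustment ran over all genes kept, and genes under 0.05 were called. The common dispersion had a square root of 0.170. A standard error is the size of the log2 fold change over the root of its F value. The fit and test were run on simulated counts with a single dispersion and with fold changes placed in SCR with LPS only. Contrasts between conditions and differences in response were not checked there. Replicate libraries of a group differed beyond sampling noise, which does not show that they came from separate cultures. Each library was treated as 1 sample.

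Of the contrasts between conditions within a state, same-numbered libraries deviated together in every pair only for SCR against WT with LPS (correlations of deviations from the group means 0.261, 0.163 and 0.253). Elsewhere a single pair reached 0.304 (WT and KD without LPS, replicate 1). The labels do not say what the numbers mark, so no contrast has a pairing given by the design. Alternatives were DESeq2 1.42.0 on all libraries and on those of a contrast without a filter, RLE size factors, no filter, the libraries of a contrast alone, a replicate block and leaving out each library.

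All 10 members are named in each LPS response, and in other contrasts where they passed the threshold. From each pathway list the up to 3 genes that ranked first by adjusted p in the SCR response to LPS are named, with TRAFD1, TNF, IL1B and CXCL8 as checks and the 3 nearest non-members of NFKBIA, NFKB2 and NFKBIZ. Members that missed the threshold but had an unadjusted p under 0.05 and list genes named outside this rule were chosen after their values were seen. The members and lists were chosen with earlier results of these data known. The target genes CCL3, CCL4 and SOD2 had no matching identifier and were not analysed here. CCL5 and CSF2, with 0 counts in all libraries, and IL6, with 0 to 13 counts, were matched but not tested. Whether the RNA of CCL5 and CSF2 was absent or was not counted there was not examined.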

Additional observations from a re-analysis of the deposited data

Results flagged for a closer look

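The size of the LPS response differed between conditions in 8 cases, by the interaction term of the edgeR fit, which tests the difference itself with 3 libraries in each of the 4 groups involved and Benjamini-Hochberg adjustment over all genes tested. In SCR the response was smaller than in WT for RELB (difference of log2 fold changes -1.67), NFKB2 (-1.29), NFKBIE (-0.78), NFKB1 (-0.77) and NFKBIA (-0.63). In KD it was smaller than in WT for RELB (-1.32), NFKBIE (-0.76) and NFKB1 (-0.72). Both sets are measured against the same WT libraries. In all 8 cases the unstimulated libraries of SCR or KD had a higher mean than those of WT. Groups of 3 libraries are too small for a test of single outlying libraries. In fits that left out each library in turn, only RELB and NFKB2 in SCR against WT kept their call every time.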

How the results depend on the processing

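The counts of members called for the LPS response in WT, SCR and KD, for SCR against WT without LPS and for the response of KD against SCR stayed within 1.5 times the reported count under every alternative run. Other counts moved. In KD against SCR without LPS the reported 0 became 2 with no filter on low counts, 2 with the replicate block and 1 with DESeq2. In KD against SCR with LPS the reported 0 became 1 with no filter, 1 with the libraries of the contrast alone, 1 with DESeq2 and 2 with DESeq2 on those libraries without a filter. In SCR against WT with LPS the reported 0 became 2, 1 and 1 with no filter, the replicate block and DESeq2, and 2 when DESeq2 saw the 6 libraries of the contrast. In KD against WT without LPS the reported 6 became 0 by edgeR and 2 by DESeq2 on the libraries of the contrast alone, and 3 to 6 when a library was left out. In KD against WT with LPS the reported 3 became 6 by either tool on the libraries of the contrast alone, and 1 whichever library was left out. For the response of SCR against WT the reported 5 ran from 2 to 6 when a library was left out. For the response of KD against WT the reported 3 became 6 with no filter, 7 with the replicate block, 1 with the libraries of the contrast alone and 7 with DESeq2 on all or on those libraries, and 0 to 6 when a library was left out. The cause of these shifts was not tested. RELA changed sign in its LPS response in SCR without SCR replicate 4 (log2 fold change 0.057, range over left-out libraries -0.087 to 0.057) and in KD without KD replicate 1 (-0.014, range -0.014 to 0.22), neither past the threshold. The replicate block joined same-numbered libraries, which by their labels share only a number. It added the calls counted above and BCL3 in the response of SCR against WT and RELA in KD against WT without LPS. With 3 libraries per group, the least abundant members (NFKBIZ from 25 counts per library) have the widest errors.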
